A study of Mus musculus with 20 samples.

Results

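The 10 genes described here, Manba, Lmo4, Ddah1, Ifi44l, Fubp1, Usp33, Pigk, Rabggtb, Cryz and Cth, lie around Acadm on mouse chromosome 3. Acadm encodes medium-chain acyl-CoA dehydrogenase (MCAD), the enzyme with which the mitochondrial breakdown of fatty acids of medium chain length begins, and the gene inactivated in the MCAD-/- mice. The 10 genes were represented by all 22 probe sets that the platform annotation gives to a single one of these symbols, out of 45037 probe sets and 18193 named genes. They were chosen from genotype differences seen earlier on the same arrays and from their place beside Acadm, so their genotype differences are given as a description with no test. Liver RNA was measured on 20 Affymetrix arrays, 1 per male mouse, in 4 groups of 5: MCAD-/- with LPS, MCAD-/- with vehicle, wild type with LPS and wild type with vehicle. LPS is lipopolysaccharide, an outer membrane molecule of bacteria to which the body reacts with inflammation, and was given at 100 µg per 20 g body weight. All mice, wild type included, were 50 to 60 days old, on a mixed BL6/SV129 background, and fasted for 12 h after the injection. The series design calls the 5 mice of a group biological replicates; the labels give neither the stem cell line, nor the number of backcrosses, nor whether the genotypes were littermates.

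When a gene is inactivated in embryonic stem cells of one mouse strain and the line is crossed to another strain, mice chosen for the inactive allele keep a stretch of stem cell strain chromosome on both sides of it. Genes in that stretch travel with the allele, and their levels can follow the strain they came from rather than the loss of the targeted protein. Such a gene can differ from wild type under any treatment, so the question for each gene was whether it differed by genotype under both injections and whether its probe sets differed alike.

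Values are GCRMA intensities on a linear scale, called units here, and differences and their standard errors (SE) are on the log2 scale. GCRMA draws dim probe sets towards a floor, so a probe set was tested if it exceeded 16 units on at least 5 arrays. Of the 22 probe sets 17 passed, with at least 1 for each gene. Where all 5 mice of the dimmer group were under 16 units, a fold is given as a lower bound against 16 units. The share of probe sets above 16 units was 30.3% to 32.4% per array, and no pair of arrays was identical. The 3' to 5' ratio of the actin control, a sign of RNA integrity, was 3.18 and 3.69 on the log2 scale in replicate 3 of wild type with vehicle and replicate 4 of wild type with LPS, against 1.35 to 2.34 in the other 18 mice. All 8 hepatocyte markers passed the filter, with mean log2 levels per mouse of 13.25 to 13.48 in MCAD-/- with LPS, 13.47 to 13.74 in MCAD-/- with vehicle, 13.0 to 13.36 in wild type with LPS and 13.46 to 13.68 in wild type with vehicle.

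Acadm itself followed the labels in all 20 mice. With vehicle its probe set 1415984_at read 9.03 to 80.2 units in MCAD-/- mice and 3106 to 4022 units in wild type mice (log2 difference -6.60 ± 0.57, SE; exact permutation p = 0.00794, two-sided, n = 5 each, the smallest that 252 regroupings allow). With LPS it read 14.3 to 218 units in MCAD-/- mice and 1450 to 2375 units in wild type mice (log2 difference -5.45 ± 0.57, SE; exact permutation p = 0.00794).

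The largest genotype differences among the 10 genes were in Ddah1, Ifi44l, Lmo4, Cth and Manba, each in the same direction under both injections, and those of Rabggtb, Pigk, Cryz, Usp33 and Fubp1 were small. Ddah1 and Manba were lower in MCAD-/- mice, and Ifi44l, Lmo4 and Cth were higher. The MCAD-/- and wild type groups did not overlap under vehicle in 9 of the 17 tested probe sets, 4 higher and 5 lower, where 12.7% of all tested probe sets did not overlap. Under LPS they did not overlap in 5, 2 higher and 3 lower, where 11.7% of all did not. Under both injections in the same direction they did not overlap in 5, which belonged to Ddah1 and Ifi44l, where 4.02% of all did not. Each of these counts includes Ifi44l 1421596_s_at, which would not have passed the filter without its MCAD-/- LPS arrays, the group where it was high. Both tested Ifi44l probe sets with vehicle, and Ddah1 1454995_at with LPS, lay mostly near or under 16 units. The median log2 difference over the 17 was -0.19 under vehicle and -0.04 under LPS, against 0.02 and -0.01 over all 15748 tested probe sets. Since the choice of genes used this comparison, nothing is read from these counts.

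**Figure D1:**
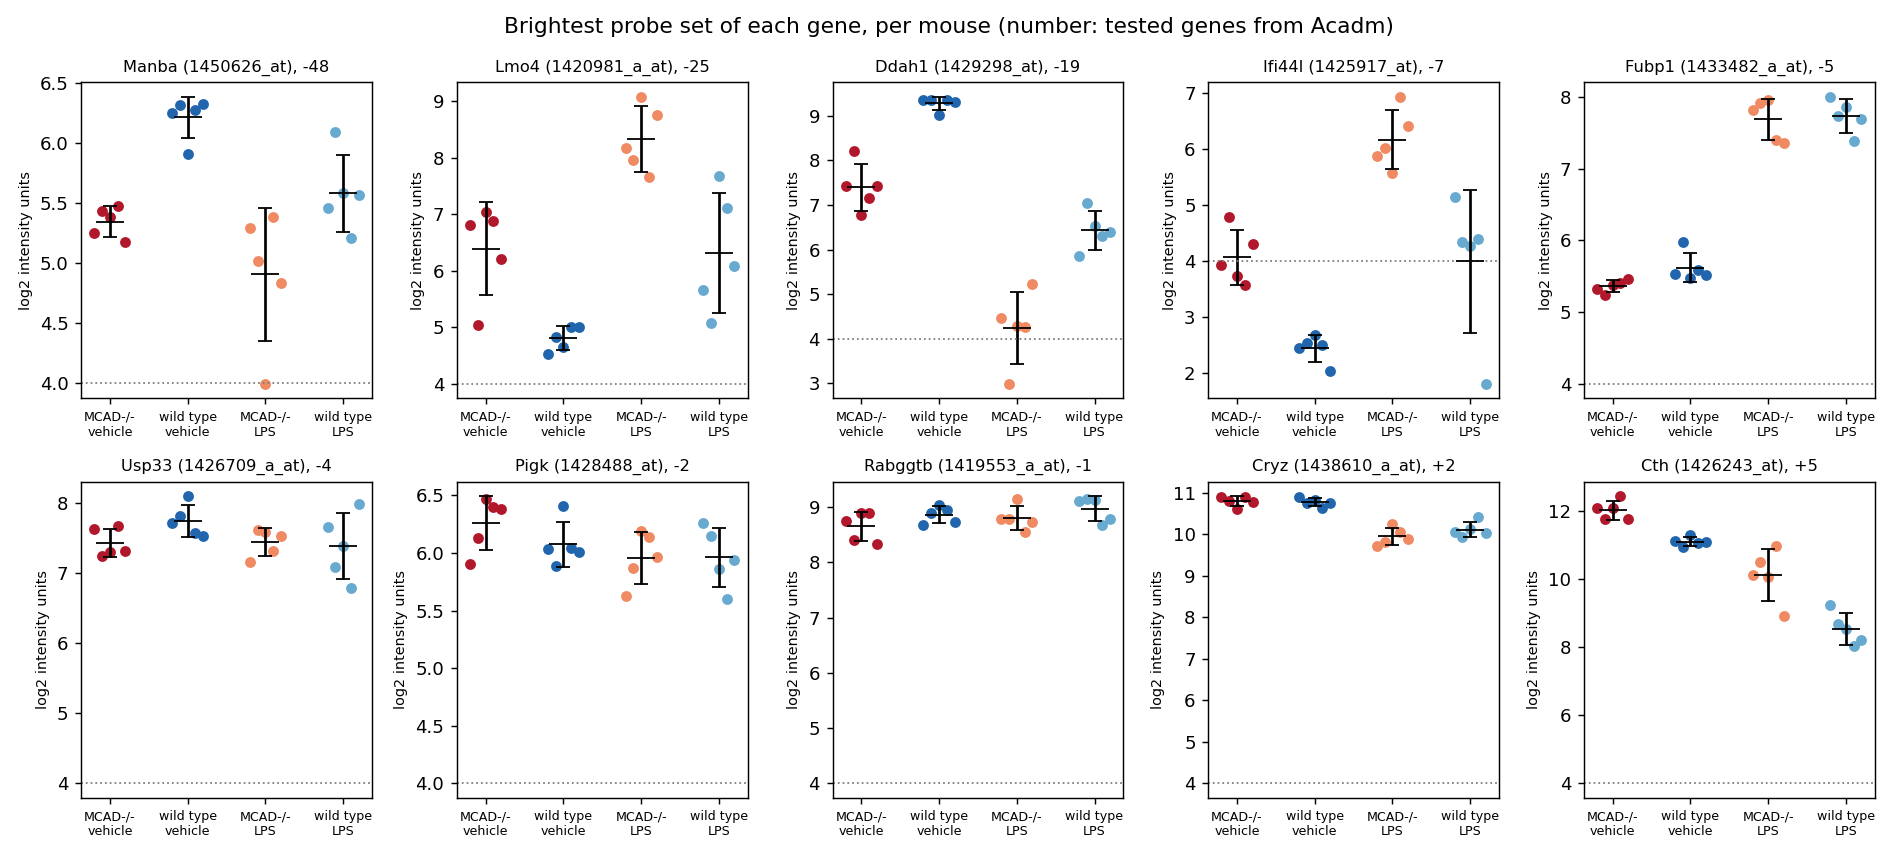
Log2 intensity (y axis, a separate range in each panel) of the brightest probe set of each gene in every mouse, by genotype and injection (x axis); bars are the mean and SD of 5 mice, the dotted line marks 16 units, and the number in each title is the place in gene order relative to Acadm. Ddah1 in the MCAD-/- groups sat below wild type and Ifi44l above it under both injections, while Rabggtb, Cryz, Pigk and Usp33 overlapped between genotypes.

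Ddah1 encodes dimethylarginine dimethylaminohydrolase 1, which degrades the methylated arginines that inhibit nitric oxide synthases. Its brightest probe set, 1429298_at, read 171, 297, 109, 142 and 173 units in MCAD-/- mice with vehicle, against 657, 658, 521, 651 and 636 units in wild type mice with vehicle. With LPS it read 21.9, 7.97, 19.6, 19.3 and 37.3 units in MCAD-/- mice, against 57.9, 133, 92.4, 79.5 and 84.1 units in wild type mice. Every MCAD-/- mouse was below every wild type mouse of its injection. The level was 3.69-fold lower in MCAD-/- with vehicle (log2 difference -1.88 ± 0.31, SE) and 4.54-fold lower with LPS (-2.18 ± 0.31). On a log2(value + 16) scale the difference with LPS was -1.51.

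The other 4 Ddah1 probe sets were lower with vehicle too. Probe set 1454995_at was 6.08-fold lower in MCAD-/- with vehicle, at 19.1 to 112 units against 207 to 272 units in wild type, and at least 1.04-fold lower with LPS, at 5.24 to 10.3 against 11.9 to 34.7 units. Probe set 1455400_at was 3.58-fold lower with vehicle, at 21.6 to 82.8 against 150 to 165 units, and at least 1.82-fold lower with LPS, at 4.42 to 15.01 against 20.3 to 45.0 units. The 2 probe sets that did not pass the filter, 1429299_at and 1434519_at, were at least 1.502-fold and at least 1.17-fold lower in MCAD-/- with vehicle and were under 16 units in both genotypes with LPS. All 5 probe sets of Ddah1 were thus lower in MCAD-/- mice with vehicle, with no overlap. With LPS the 3 tested ones were lower with no overlap. For 1454995_at with LPS, however, wild type replicate 2 at 34.7 units was the only mouse above 16 units. The bound of 1.04-fold rests on that mouse, and on the log2(value + 16) scale the difference was -0.53. The 2 probe sets that did not pass the filter were too dim to compare with LPS. Of all tested probe sets 12.7% did not overlap with vehicle and 11.7% with LPS.

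The MCAD-/- vehicle group was uneven for Ddah1. Replicate 2 was the highest of its group in each of the 3 tested probe sets, at 297, 112 and 82.8 units, and still below all wild type mice. The same mouse was the lowest of its group for Lmo4, at 32.7 units, just above the wild type range. Lmo4 and Ddah1 are 6 tested genes apart. For Ifi44l 1425917_at, however, the same mouse was the highest of its group, at 27.5 units, and so farthest from wild type. For Manba and Cth it was neither the highest nor the lowest of its group, at 43.3 and 3508 units. This mouse was picked after its values were seen. Nothing is read from its levels or from the distance between the genes.

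Ifi44l is named as an interferon-induced gene. Its probe set 1425917_at read 15.2, 27.5, 13.2, 11.9 and 19.7 units in MCAD-/- mice with vehicle, against 5.46, 5.82, 6.38, 5.67 and 4.10 units in wild type mice with vehicle. Under LPS the values were 58.8, 64.9, 47.7, 122 and 85.1 units in MCAD-/- mice, against 35.5, 20.2, 19.3, 21.04 and 3.51 units in wild type mice. The genotypes did not overlap under either injection, and wild type LPS replicate 5 stayed at the level of wild type mice with vehicle. The level was at least 1.04-fold higher in MCAD-/- with vehicle (fitted log2 difference 1.62 ± 0.43, SE, which depends on the floor). With LPS it was 4.51-fold higher (2.17 ± 0.43), with a wild type mean just under 16 units, so this fold depends on the floor too. On a log2(value + 16) scale the difference with vehicle was 0.62.

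A second Ifi44l probe set, 1421596_s_at, went the same way. With LPS it read 35.6 to 98.5 units in MCAD-/- mice and 3.32 to 27.5 units in wild type mice (log2 difference 2.34 ± 0.40, SE; 1.39 on the log2(value + 16) scale). With vehicle it read 7.55 to 18.5 units in MCAD-/- mice and 3.82 to 6.24 units in wild type mice, and no fold is given because both means were under 16 units. In the platform's naming the suffix _s_at marks a probe set that can match more than a single gene. The third, 1450301_at, stayed between 3.07 and 4.92 units on all 20 arrays, under the filter. Ifi44l passed the filter largely through LPS arrays, with 8 arrays above 16 units for 1421596_s_at and 11 for 1425917_at.

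The promoter sequences of these 2 genes are shown because they alone had genotypes without overlap under both injections in any probe set. Part of that lack of overlap lay among values near or under 16 units. Each is the 250 bases before the gene start, 5' to 3' on the gene's own strand, from RefSeq with assembly GRCm38.p6, which is C57BL/6J sequence. Capitals mark CG dinucleotides. Sequence of the SV129 strain was not analysed here.
Ddah1, chr3:145758442-145758691, plus strand: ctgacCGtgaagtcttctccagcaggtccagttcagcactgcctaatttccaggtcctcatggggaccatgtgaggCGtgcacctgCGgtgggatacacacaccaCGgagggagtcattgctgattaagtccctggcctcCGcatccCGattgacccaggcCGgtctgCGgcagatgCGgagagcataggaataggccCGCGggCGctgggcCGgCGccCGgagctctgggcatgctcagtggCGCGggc
Ifi44l, chr3:151762892-151763141, minus strand: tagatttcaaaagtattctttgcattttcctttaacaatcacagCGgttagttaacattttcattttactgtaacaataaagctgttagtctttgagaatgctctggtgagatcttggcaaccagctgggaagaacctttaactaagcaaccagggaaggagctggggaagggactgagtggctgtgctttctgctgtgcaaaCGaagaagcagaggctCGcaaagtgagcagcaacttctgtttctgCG

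The Ddah1 stretch holds 17 CG dinucleotides, and 23.5% of all 32851 promoters in the RefSeq table hold as many CG or more. The Ifi44l stretch holds 4 CG, and 62.2% of promoters hold as many or more. The interferon-stimulated response element, as GAAA, any 2 bases and GAAA, was searched on both strands of the 300 bases from 250 before to 50 after each start. It was in none of the 11 promoters listed for 7 of the 10 genes, Ifi44l included, and in 3.44% of all promoters, which says only that these letters are not in this window.

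Lmo4, Cth and Manba differed without overlap under vehicle and overlapped by 1 or a few mice under LPS. Lmo4 encodes a LIM-only protein that bridges transcription factors in the nucleus. Its single probe set 1420981_a_at read 111, 32.7, 131, 118 and 73.9 units in MCAD-/- mice with vehicle, against 23.1, 28.5, 25.1, 32.2 and 32.1 units in wild type mice with vehicle. Under LPS the values were 286, 250, 540, 203 and 433 units in MCAD-/- mice, against 50.8, 33.5, 204, 138 and 67.8 units in wild type mice. The highest wild type mouse with LPS, replicate 3, lay just above the lowest MCAD-/- mouse. Lmo4 was 3.00-fold higher in MCAD-/- with vehicle (log2 difference 1.58 ± 0.43, SE) and 4.01-fold higher with LPS (2.01 ± 0.43).

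Cth encodes cystathionine gamma-lyase, which makes cysteine in the transsulfuration pathway. Its single probe set 1426243_at read 4389, 3508, 4347, 5515 and 3450 units in MCAD-/- mice with vehicle, against 2240, 1958, 2533, 2116 and 2163 units in wild type mice with vehicle. Under LPS the values were 1106, 1442, 1075, 2029 and 485 units in MCAD-/- mice, against 607, 410, 370, 265 and 297 units in wild type mice. MCAD-/- replicate 5 was the single MCAD-/- mouse inside the wild type range with LPS. Cth was 1.90-fold higher in MCAD-/- with vehicle (log2 difference 0.93 ± 0.28, SE) and 2.98-fold higher with LPS (1.57 ± 0.28).

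Manba encodes beta-mannosidase, a lysosomal enzyme that trims mannose from glycoprotein chains. Its single probe set 1450626_at read 38.0, 43.3, 41.7, 44.6 and 36.2 units in MCAD-/- mice with vehicle, against 76.0, 79.7, 60.2, 77.3 and 79.99 units in wild type mice with vehicle. With LPS it read 39.2, 32.5, 15.9, 41.7 and 28.5 units in MCAD-/- mice, against 43.9, 68.0, 48.0, 37.0 and 47.5 units in wild type mice, and the groups overlapped. Manba was 1.83-fold lower in MCAD-/- with vehicle (log2 difference -0.87 ± 0.20, SE) and 1.60-fold lower with LPS (-0.68 ± 0.20). Lmo4, Cth and Manba had a single probe set each, so agreement between probe sets could not be examined.

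The other 5 genes, together with Cth, lie within 5 tested genes of Acadm. Rabggtb, the beta subunit of the enzyme that attaches geranylgeranyl lipids to Rab proteins, lies next to Acadm among the tested genes. Its single probe set, 1419553_a_at, read 429, 338, 473, 474 and 320 units in MCAD-/- mice with vehicle, against 411, 476.5, 527, 494 and 422 units in wild type mice under vehicle, and 375 to 567 against 408 to 566 units with LPS. The groups overlapped widely (log2 differences -0.21 ± 0.14 and -0.17 ± 0.14, SE).

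Cryz encodes zeta-crystallin, a quinone reductase, and lies 2 tested genes after Acadm. Its brighter probe set 1438610_a_at read 1570 to 1915 units in MCAD-/- mice, against 1606 to 1911 units in wild type mice, all with vehicle. The log2 differences were 0.02 ± 0.11 with vehicle and -0.17 ± 0.11 with LPS (SE), and its other probe set gave -0.10 and -0.19. Pigk, the catalytic subunit of the complex that attaches GPI anchors to proteins, had 2 tested probe sets of opposite sign with vehicle, 0.18 ± 0.15 for 1428488_at and -0.19 ± 0.16 for 1435352_at (SE).

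Usp33 encodes a deubiquitinating enzyme. Its single probe set, 1426709_a_at, read 151 to 204 units in MCAD-/- mice and 185 to 274 units in wild type mice under vehicle, with log2 differences of -0.31 ± 0.18 with vehicle and 0.06 ± 0.18 with LPS (SE). Fubp1, a DNA-binding regulator of Myc, had a single probe set without overlap, 1433482_a_at, with 37.8 to 44.2 units in MCAD-/- mice and 44.3 to 63.2 units in wild type mice under vehicle. The highest MCAD-/- mouse and the lowest wild type mouse were 44.2 and 44.3 units, and the difference was -0.26 ± 0.14 with vehicle and -0.04 ± 0.14 with LPS (SE). Over the 9 tested probe sets of these 5 genes, the log2 differences ran from -0.38 to 0.18 with vehicle and from -0.19 to 0.31 with LPS.

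**Figure D2:**
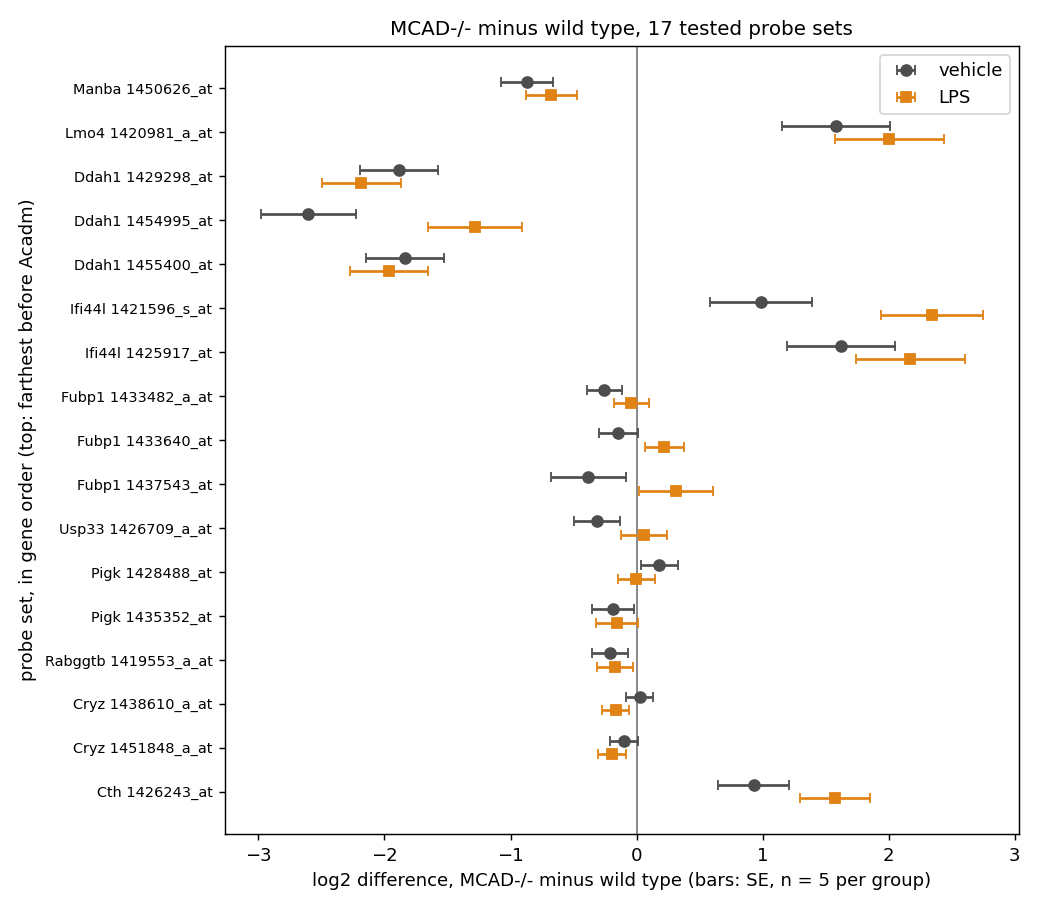
Log2 difference between MCAD-/- and wild type mice (x axis, bars are the SE, n = 5 per group) for the 17 tested probe sets in gene order (y axis), under vehicle (circles) and LPS (squares). The 3 Ddah1 probe sets lay between -2.60 and -1.28 and the 2 Ifi44l probe sets between 0.99 and 2.34, while the 9 probe sets of Fubp1, Usp33, Pigk, Rabggtb and Cryz lay between -0.38 and 0.31.

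Probe sets of the same gene gave the same sign in both genotype comparisons for Ddah1 and Ifi44l among the 5 genes with several tested probe sets. For Ifi44l this rests on 1421596_s_at, which would not have passed the filter without its MCAD-/- LPS arrays, the group where it was high. Nothing is therefore read from the agreement in Ifi44l. In Fubp1 all 3 tested probe sets were negative with vehicle, and 2 were positive and 1 negative with LPS. In Cryz and Pigk the signs differed with vehicle and were negative with LPS. Of all 17 tested probe sets, 12 kept their sign between the injections. Some differences near 0, in Fubp1, Usp33, Pigk and Cryz, changed sign when 1 mouse was left out.

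The other genes around Acadm were taken by gene order, each by its brightest tested probe set, after the 10 genes were left out. The 10 were chosen partly from genotype differences, so leaving them out can lower the counts that follow. RefSeq annotation (assembly GRCm38.p6) gave the order, and 446 tested genes were on chromosome 3, 437 before Acadm and 8 after it. In that order Manba was 48 tested genes before Acadm, Lmo4 25, Ddah1 19, Ifi44l 7, Fubp1 5, Usp33 4, Pigk 2 and Rabggtb 1, with Cryz 2 and Cth 5 after it. Of the 20 tested genes nearest to Acadm, 7 are among the 10 described above and 13 are not. Of these 13, 0 passed the limma test for genotype under both injections in the same direction, where 5.95% of the 8758 tested genes with a place in the annotation passed. At an unadjusted p under 0.05 the count was also 0 of 13. So few genes cannot tell a count of 0 from a share of 5.95%.

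Under vehicle 1 of the 13 passed, against 14.8% of all, and under LPS 1 of the 13, against 19.3% of all. With vehicle the count was 2 without MCAD-/- vehicle replicate 5, wild type vehicle replicate 3, or wild type LPS replicate 1 or 4, and with LPS it was 2 without MCAD-/- LPS replicate 5. The 2 genes were named after their values were seen. Adgrl4, an adhesion receptor of endothelial cells, was higher in MCAD-/- with vehicle, at 20.3 to 41.6 units against 9.70 to 29.9 units in wild type. The fitted log2 difference of 0.98 ± 0.25 (SE; limma adjusted p = 0.013) depends on the floor, since the wild type mean was 14.4 units. Adgrl4 would not have passed the filter without its MCAD-/- vehicle arrays, the group where it was high, so nothing is read from this call. With LPS it was under 16 units in all 10 mice, at 6.85 to 9.80 units in MCAD-/- and 6.56 to 9.89 units in wild type, so that a difference there was not measurable. Uox, the urate oxidase of liver peroxisomes, was higher in MCAD-/- with LPS, at 2875 to 5764 units against 2025 to 3911 units in wild type (0.67 ± 0.18; limma adjusted p = 0.0125), and did not pass with vehicle (0.13; adjusted p = 0.71).

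Widening the stretch gave 0 of 31 other genes among the nearest 40 (1 at an unadjusted p under 0.05) and 2 of 70 among the nearest 80 (2.86%). The 2, also named after their values were seen, were Elovl6, a fatty acid elongase 69 tested genes before Acadm, and Etnppl, which breaks down phosphoethanolamine, 63 before it. Elovl6 was lower in MCAD-/- (log2 difference -1.22 ± 0.26 with vehicle, limma adjusted p = 0.00321; -1.09 ± 0.26 with LPS, adjusted p = 0.00604; SE). Etnppl was higher, at 1227 to 3519 units against 541 to 1043 units in wild type with vehicle (1.60 ± 0.40, SE; limma adjusted p = 0.011), and at 28.1 to 94.7 against 12.7 to 43.4 units with LPS, where the groups overlapped (1.26 ± 0.40; adjusted p = 0.0352). Both lie farther from Acadm than Manba.

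By distance and with the 10 genes left out, 0 of 11 genes passed under both injections at 1 to 10 places from Acadm and 0 of 9 at 11 to 20. At 21 to 40 places 0 of 19 passed, at 41 to 80 places 2 of 39, at 81 to 160 places 2 of 80 and beyond 16 of 277. The 10 were chosen partly from genotype differences. Leaving them out can lower the counts near Acadm, so nothing is read from these counts. Chromosome 3 without Acadm and the 10 genes had 4.60%, and the other 19 chromosomes ran from 2.65% to 12.3%. The median size of the log2 difference in the 13 other genes among the nearest 20 was 0.19 with vehicle and 0.15 with LPS, against 0.20 and 0.22 over all. In gene order, Ddah1, Ifi44l, Lmo4, Cth and Manba were separated by genes that did not pass the test under both injections. Some of those passed under 1 injection, Adgrl4 with vehicle and Uox with LPS among them, and nothing is read from this order. Whether strain sequence beside the Acadm allele, or under the probes themselves, has a part in their differences was not tested.

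**Figure D3:**
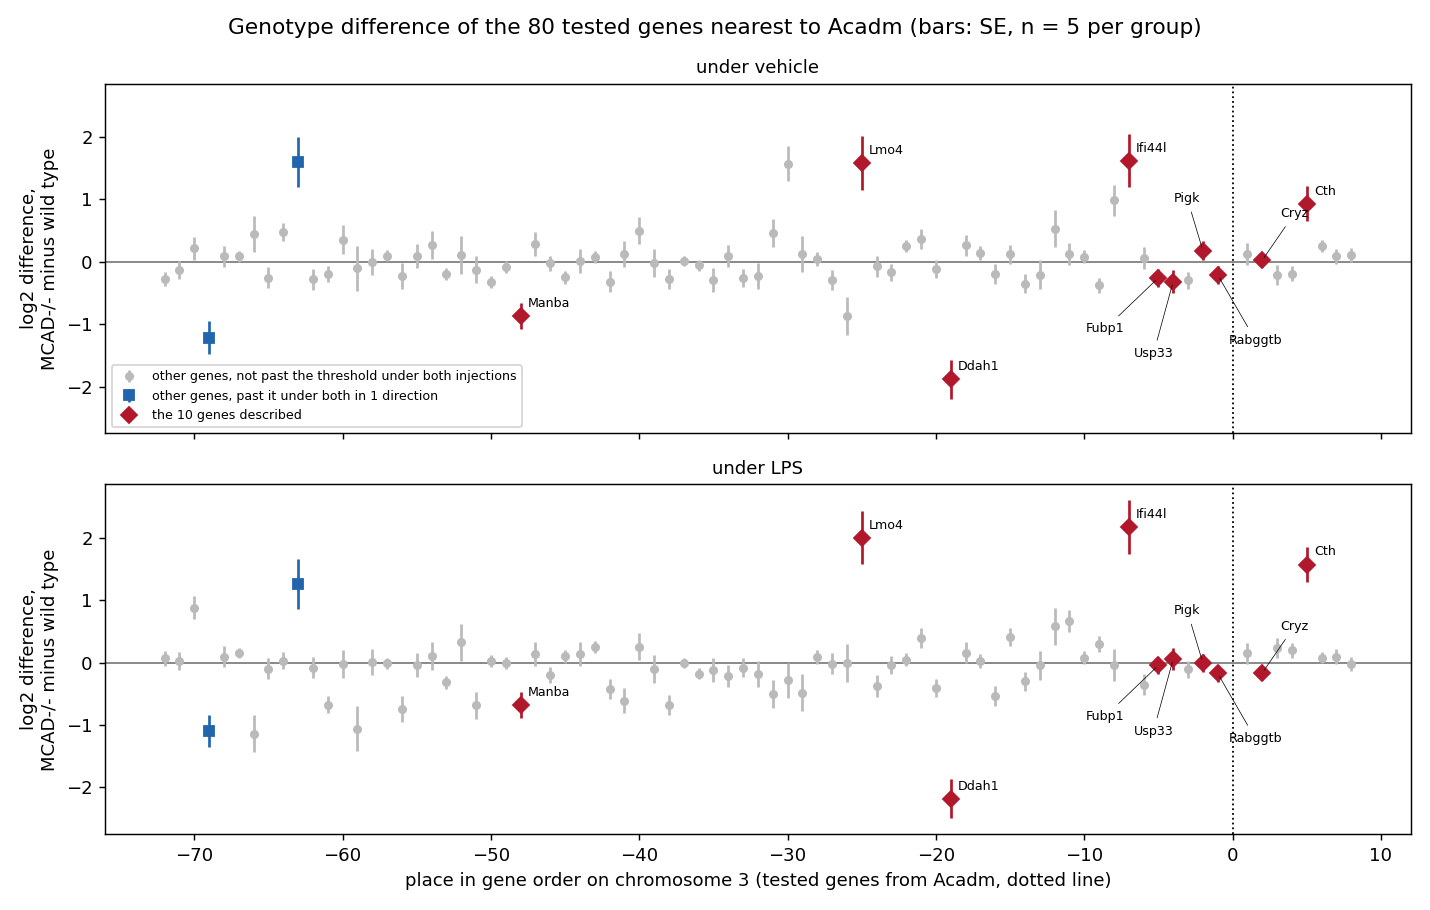
Log2 genotype difference (y axis, MCAD-/- minus wild type, bars are the SE, n = 5 per group) of the 80 tested genes nearest to Acadm in gene order (x axis, in tested genes), under vehicle (top) and LPS (bottom). Diamonds are the 10 genes described, squares the 2 other genes past the threshold under both injections, and grey points the other genes; Ddah1 at -1.88 and -2.18 is the lowest of the diamonds.

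Cell type markers also differed by genotype under vehicle. Of the tested markers of liver endothelium 9 of 10 were higher in MCAD-/- with vehicle (median log2 difference 1.49), of Kupffer cells and macrophages 6 of 9 (0.85), of stellate cells and fibroblasts 5 of 7 (0.86), of hepatocytes 1 of 8 (0.03) and of neutrophils 0 of 3 (0.14), and none was lower. Of all 8758 tested genes with a place in the annotation, 790 were higher and 506 lower with vehicle, and 721 were higher and 972 lower with LPS. The endothelial mean log2 level per mouse was 6.76 to 7.36 in MCAD-/- and 5.01 to 6.13 in wild type with vehicle. With LPS it was 5.23 to 6.04 in MCAD-/- and 5.41 to 6.16 in wild type, with 0 of 10 markers higher and 1 lower in MCAD-/- (median log2 difference -0.02). Under LPS 0 of 9 Kupffer markers passed (0.34), 1 of 7 stellate markers was higher and 2 were lower (0.37), 2 of 8 hepatocyte markers were higher (0.10) and 1 of 3 neutrophil markers was higher (0.32). The Kupffer means with vehicle were 6.99 to 7.49 in MCAD-/- and 6.17 to 6.89 in wild type, and the stellate means 7.22 to 7.56 in MCAD-/- and 6.26 to 7.06 in wild type. With LPS the Kupffer means were 5.35 to 6.37 in MCAD-/- and 5.10 to 6.34 in wild type, and the stellate means 6.15 to 6.82 in MCAD-/- and 5.73 to 6.68 in wild type. The neutrophil means were 2.51 to 5.16 in MCAD-/- and 2.53 to 4.39 in wild type with vehicle, and 8.90 to 9.42 in MCAD-/- and 8.22 to 9.34 in wild type with LPS. Pecam1, Timd4, Col1a1, Des, Camp, Csf3r, Cxcr2, Elane, Ltf and Mpo did not pass the filter. In bulk tissue, more cells of a type and more RNA per cell cannot be told apart. The part of cell makeup in the differences of Ddah1, Ifi44l, Lmo4, Cth and Manba was not tested.

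The genes were not chosen by their response to LPS, though earlier results of these data were known. The response is computed from the same arrays as the genotype differences, so it is not independent of the choice. It was tested over all probe sets with limma (Benjamini-Hochberg adjusted p under 0.05, two-sided). In MCAD-/- mice 5 of the 17 tested probe sets rose, where 34.5% of all tested probe sets rose, and 7 fell, where 26.0% fell. In wild type mice 5 rose, against 34.9% of all, and 9 fell, against 24.4%. Both counts of 5 include Ifi44l 1421596_s_at, which would not have passed the filter without its MCAD-/- LPS arrays. Lmo4, Ifi44l and Fubp1 rose, and Ddah1, Cth, Cryz and Pigk fell in both genotypes by at least 1 probe set. Manba fell in wild type, with adjusted p of 0.00107 to 0.036 over the settings. The median log2 response over the 17 was -0.30 in MCAD-/- and -0.45 in wild type, against 0.12 and 0.11 over all. With LPS all 3 tested neutrophil markers rose in both genotypes. Of 9 Kupffer markers 1 rose and 8 fell in MCAD-/-, and 1 rose and 6 fell in wild type. Of 8 hepatocyte markers 1 rose and 5 fell in each genotype. Of 10 endothelial markers 2 rose and 6 fell in MCAD-/- (median log2 response -0.72), and 5 rose and 2 fell in wild type (0.70). Of 7 stellate markers 0 rose and 5 fell in MCAD-/- (-1.17), and 2 rose and 2 fell in wild type (-0.21). The part of these changes in the responses was not tested.

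Ddah1 had the largest fall of the 10 genes. Probe set 1429298_at averaged 19.0 units with LPS against 168.5 units with vehicle in MCAD-/- mice, 8.88-fold lower (log2 difference -3.15 ± 0.31, SE; limma adjusted p = 6.53e-08). In wild type mice it averaged 86.2 units with LPS against 622 units with vehicle, 7.22-fold lower (-2.85 ± 0.31; limma adjusted p = 2.73e-07). The responses differed between genotypes by -0.30 ± 0.44 (SE). The other tested Ddah1 probe sets fell too, 1454995_at by at least 2.52-fold in MCAD-/- and 14.7-fold in wild type, and 1455400_at by at least 2.79-fold in MCAD-/- and 5.49-fold in wild type. The value of 14.7-fold depends on the floor, since wild type LPS replicates 1, 3, 4 and 5 were under 16 units.

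Cth fell in both genotypes. It averaged 1110 units with LPS against 4178 units with vehicle in MCAD-/- mice, 3.76-fold lower (log2 difference -1.91 ± 0.28, SE; limma adjusted p = 8.86e-06). It averaged 373 units with LPS against 2194 units with vehicle in wild type mice, 5.88-fold lower (-2.56 ± 0.28; limma adjusted p = 2.71e-07). Cryz fell in both probe sets, 1.80-fold and 2.23-fold in MCAD-/- (limma adjusted p = 1.81e-06 and 4.14e-08) and 1.58-fold and 2.09-fold in wild type (3.82e-05 and 1.39e-07). The LPS and vehicle groups of Cryz did not overlap in either genotype, whereas its genotypes overlapped under both injections.

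Fubp1 rose in 2 of 3 tested probe sets. Probe set 1433482_a_at averaged 206 units with LPS against 41.1 units with vehicle in MCAD-/- mice, 5.01-fold higher (log2 difference 2.33 ± 0.14, SE; limma adjusted p = 6.68e-11), and 213 units with LPS against 49.1 units with vehicle in wild type mice, 4.33-fold higher (2.11 ± 0.14; limma adjusted p = 2.95e-10). Probe set 1433640_at rose 2.35-fold in MCAD-/- and 1.82-fold in wild type. Probe set 1437543_at went against them: its log2 difference was -0.07 ± 0.30 in MCAD-/- (limma adjusted p = 0.859) and -0.76 ± 0.30 in wild type (SE; limma adjusted p = 0.0325). That fall in wild type did not pass without the filter, with the 2 wild type groups alone, without the 2 mice of high actin ratio, or without any single mouse of vehicle replicates 1, 3 and 5 or LPS replicates 1, 2 and 4. The adjusted p ranged from 0.00546 to 0.105. The fourth Fubp1 probe set was under 16 units on all arrays.

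Lmo4 rose 3.83-fold in MCAD-/- (321 units with LPS against 83.8 units with vehicle; limma adjusted p = 0.000698) and 2.86-fold in wild type (79.9 against 28.0 units; limma adjusted p = 0.00519), with no overlap between LPS and vehicle in either genotype. Ifi44l 1425917_at rose 4.29-fold in MCAD-/- (71.7 units with LPS against 16.7 units with vehicle; log2 difference 2.10 ± 0.43, SE; limma adjusted p = 0.000328). This fold depends on the floor, since MCAD-/- vehicle replicates 1, 3 and 4 were under 16 units. In wild type the fitted difference was 1.55 ± 0.43 (SE; limma adjusted p = 0.00438), but the groups overlapped through replicate 5 and no fold is given since the mean with LPS was 15.9 units. For 1421596_s_at the fitted differences were 2.54 ± 0.40 in MCAD-/- (limma adjusted p = 2.33e-05) and 1.18 ± 0.40 in wild type (adjusted p = 0.0168). Both are fitted values that depend on the floor, since the vehicle means of both genotypes and the wild type LPS mean of 11.9 units were under 16 units. The probe set would not have passed the filter without its MCAD-/- LPS arrays, the group where it was high, so nothing is read from its call in MCAD-/-. The wild type call ended without wild type LPS replicate 1 (0.88; adjusted p = 0.0586), in a range of 0.000134 to 0.0586 over the settings.

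Manba fell 1.55-fold in wild type (47.9 units with LPS against 74.2 units with vehicle; limma adjusted p = 0.0121), and its difference of -0.44 ± 0.20 (SE) in MCAD-/- did not pass (limma adjusted p = 0.069; range over the settings 0.0168 to 0.249, under 0.05 without LPS replicate 1 or 4 and after median centring or quantile normalization). Pigk 1435352_at fell 1.33-fold in MCAD-/- (limma adjusted p = 0.0353) and 1.36-fold in wild type (limma adjusted p = 0.025), near the threshold. The MCAD-/- call ended without the filter and without vehicle replicate 1, 2 or 4 or LPS replicate 2 or 3. The wild type call ended with the 2 wild type groups alone and without vehicle replicate 3 or 5 or LPS replicate 1, 2 or 3, and the adjusted p reached 0.115 in MCAD-/- and 0.0749 in wild type. Probe set 1428488_at did not pass (limma adjusted p = 0.0838 in MCAD-/- and 0.517 in wild type), but passed in MCAD-/- without vehicle replicate 1, after median centring or quantile normalization, and without the 2 mice of high actin ratio (range over the settings 0.0257 to 0.223). Rabggtb (log2 differences 0.15 in MCAD-/- and 0.11 in wild type; limma adjusted p = 0.373 and 0.512) and Usp33 (0.01 and -0.36; limma adjusted p = 0.963 and 0.0945) did not pass in either genotype. Usp33 passed in wild type without LPS replicate 5 and after median centring (range over the settings 0.0139 to 0.537).

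**Figure D4:**
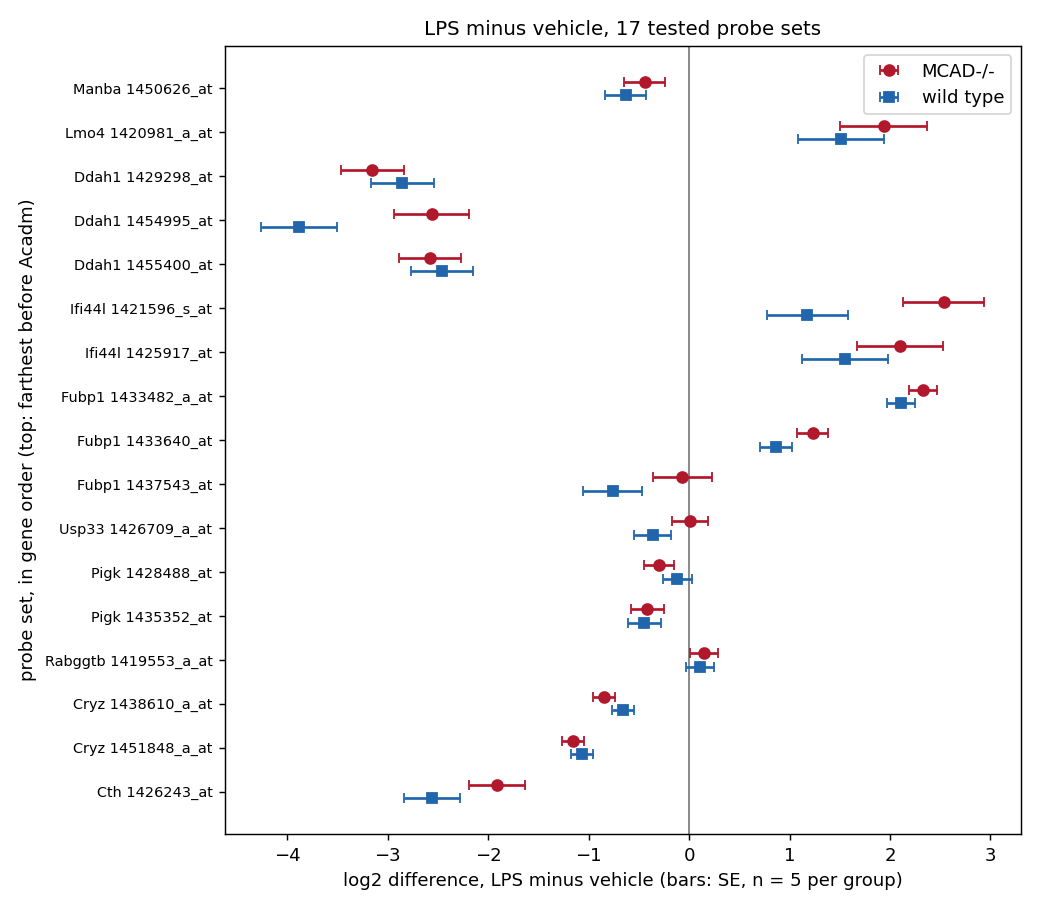
Log2 difference between LPS and vehicle (x axis, bars are the SE, n = 5 per group) for the 17 tested probe sets in gene order (y axis), in MCAD-/- mice (circles) and wild type mice (squares). Fubp1 1433482_a_at at 2.33 and 2.11 and Fubp1 1437543_at at -0.07 and -0.76 stand apart within a single gene, and the 3 Ddah1 probe sets lie between -3.88 and -2.46.

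The sign of the genotype difference and that of the LPS response combined in several ways. Ddah1 was lower in MCAD-/- mice and lower with LPS, Lmo4 and Ifi44l were higher in MCAD-/- mice and higher with LPS, and Cth was higher in MCAD-/- mice and lower with LPS. The responses of these genes differed between genotypes by 0.42 ± 0.61 for Lmo4, 0.64 ± 0.40 for Cth, 0.19 ± 0.29 for Manba and 0.55 ± 0.61 for Ifi44l 1425917_at (log2, SE). Among the tested probe sets these values, MCAD-/- response minus wild type response, were largest in size for Ifi44l 1421596_s_at (1.36 ± 0.57) and Ddah1 1454995_at (1.32 ± 0.53), both of which involve groups near the floor. They are given with no test, since they are made of the genotype differences.

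After the mean of each injection was removed, the tested genes most like Ddah1 1429298_at over the 20 arrays were Dct on chromosome 14 (Pearson r = -0.945), Mtmr7 on chromosome 8 (r = -0.944) and Rbm45 on chromosome 2 (r = -0.915). Acadm, with r = 0.84, came 126th in size. For Ifi44l 1425917_at they were Themis2 (r = 0.878) and Cep85 (r = 0.866), both on chromosome 4, and Dstn on chromosome 2 (r = -0.863), with Acadm 53rd (r = -0.799). All 6 of these genes passed the genotype test under both injections, so what they share with Ddah1 or Ifi44l over these arrays includes a genotype difference. None of the 6 is on chromosome 3, which holds 446 of the 8758 placed genes, so nothing is read from this.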

How the data were processed

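Liver RNA of 20 mice in 4 groups of 5 was hybridised to Affymetrix arrays. The authors deposited a table of linear intensity values for 45101 probe sets. Per the submitters' processing notes, these were made with GCRMA, which corrects background, quantile-normalizes and summarises the probes of a set. The log2 of the deposited values was taken here, 64 control probe sets were left out, and 15748 probe sets above 16 units on at least 5 arrays were tested with limma 3.58.1 (R 4.3.3; lmFit, eBayes), all 4 groups in a single fit, with Benjamini-Hochberg adjustment over all of them, two-sided, at 0.05. The procedure was tested on simulated data. For Acadm an exact permutation test (SciPy 1.17.1) was added. The number of arrays limits the precision. Gene names came from the platform annotation (34945 probe sets with 1 symbol), and gene order and promoters from RefSeq (GRCm38.p6), in which 8758 of 8776 tested genes were placed. The 10 genes, all their probe sets and the marker lists were chosen with earlier results of these data known. Outside the 10 genes, the rule named those past the threshold under both injections among the 20 nearest to Acadm, of which there were 0, and the 3 most correlated with Ddah1 and with Ifi44l; other genes were named after their values were seen. Replicate numbers were not used to pair the mice in the main fit. Of 30 correlations between same-numbered mice of different groups, 9 were over 0.1 (range -0.249 to 0.353). Mice of different numbers were not compared, so whether the numbers pair the mice was not settled. Other filters, log scales, normalizations, sets of arrays and the leaving out of each mouse were tried.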

Additional observations from a re-analysis of the deposited data

Results flagged for a closer look

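In 6 of 68 groups of 5 mice, counted over the 17 tested probe sets and 4 groups, a single mouse lay apart from the other 4, its gap to the nearest being over 0.71 of the group's range on the log2 scale. Chance alone gives about 1 such group in 20. Wild type vehicle replicate 3, a mouse with a high actin ratio, was lowest for Manba (60.2 units; the others 76.0 to 79.99) and for Ddah1 1429298_at (521 units; the others 636 to 658). Wild type LPS replicate 2 was highest for Ddah1 1454995_at (34.7 units; the others 11.9 to 15.2). Wild type LPS replicate 5 was lowest for Ifi44l 1425917_at (3.51 units; the others 19.3 to 35.5). Wild type vehicle replicate 2 was highest for Fubp1 1433482_a_at (63.2 units; the others 44.3 to 48.1). Wild type vehicle replicate 1 was lowest for Fubp1 1433640_at (26.2 units; the others 42.3 to 50.4).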

How the results depend on the processing

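Of the values of single probe sets, 547 of 568 recomputed under other settings and 1329 of 1360 recomputed without 1 mouse kept their direction and their side of the threshold, or moved by less than the spread between mice. With no filter the share of probe sets past the threshold was 5.24% for genotype with vehicle, 6.71% for genotype with LPS, 29.4% for LPS in MCAD-/-, 28.6% for LPS in wild type and 0.961% for the difference of the responses, since the tested set then held many dim probe sets. Without 1 mouse these shares were 9.74% to 15.5%, 13.7% to 20.0%, 57.0% to 62.8%, 56.0% to 59.8% and 1.92% to 3.65% in the same order. Of the probe sets of the 10 genes, 3 rose with LPS in MCAD-/- and 3 in wild type with a filter of 64 units. With 1 probe set per gene 3 rose and 3 fell in MCAD-/- and 3 rose and 4 fell in wild type, fewer probe sets being tested in both settings. Without 1 mouse 5 rose and 6 to 8 fell in MCAD-/-, and 4 to 5 rose and 7 to 10 fell in wild type. The count without overlap between genotypes under both injections was 5 to 6.

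Of the other genes among the 20 nearest to Acadm, 2 passed for genotype with vehicle with 1 probe set per gene, on the log2(value + 16) scale and after median centring, and 3 with the 2 mice of high actin ratio left out, a setting chosen after seeing the data. With LPS 0 passed without the filter and with the 2 groups alone. Without 1 mouse 1 to 2 passed with vehicle, 1 to 2 with LPS and 0 under both injections. Among the nearest 80 the share under both was 2.86%. The causes were not tested.

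With the replicate number as a block, 2 of these genes passed with vehicle and the share of probe sets past the threshold for genotype with vehicle was 13.1%; no other count of calls moved by over 1.5 times.

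Acadm differed by -6.904 to -6.116 with vehicle and -6.043 to -5.060 with LPS without 1 mouse. Among the LPS responses, changes of sign occurred in values near 0 that did not pass the test. Fubp1 1437543_at in MCAD-/- was -0.199 to 0.085 without 1 mouse. Usp33 in MCAD-/- was -0.074 after median centring, -0.037 after quantile normalization and -0.038 to 0.081 without 1 mouse. Pigk 1428488_at in wild type was 0.057 without the 2 mice of high actin ratio. Genotype differences near 0, which were not tested, also changed sign without 1 mouse. With LPS these were -0.132 to 0.038 for Fubp1 1433482_a_at, -0.091 to 0.208 for Usp33 and -0.092 to 0.079 for Pigk 1428488_at. With vehicle the range was -0.008 to 0.07 for Cryz 1438610_a_at. The median LPS response of all tested probe sets was 0.12 in MCAD-/- and 0.11 in wild type, and 0.04 and -0.00 after median centring, with 50.4% and 49.9% of calls higher, against 57.1% and 58.9% before. Levels near 16 units are limited by the background correction.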

Other observations

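Interferon-inducible guanylate-binding protein genes lie between Manba and Lmo4 in gene order, 29 to 32 tested genes before Acadm, and were picked after their values were seen. Gbp2b, Gbp3, Gbp2 and Gbp7 were all far above 16 units with LPS in both genotypes. With LPS Gbp2b read 649 to 1482 units in MCAD-/- mice and 678 to 1798 units in wild type mice. Under vehicle Gbp2b read 10.2 units on average in MCAD-/- mice and 3.41 in wild type mice, all under 16 units, so no difference is given. With LPS its log2 genotype difference was -0.28 ± 0.28 (SE; limma adjusted p = 0.542). With LPS the log2 genotype differences of Gbp3, Gbp2 and Gbp7 were -0.50, -0.48 and -0.18, and none passed. With vehicle Gbp2 was under 16 units in all mice, and Gbp3 (0.47) and Gbp7 (-0.23) did not pass.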
